A study of Mus musculus with 58 samples.

Results

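The genes that encode the subunits of the proteasome were followed over the day in the retinas of control and diabetic mice. They were chosen by name alone, as every gene whose symbol is Psma, Psmb, Psmc, Psmd or Psme followed by a number, which gave 43 of the 52459 genes counted. Of these, 41 passed the expression filter, a median above 4 normalized counts over all libraries, as did 19120 genes in all. Total RNA depleted of ribosomal RNA was sequenced from single retinas of male mice aged 4 months, kept in 12 h of light and 12 h of dark, so that lights went on at Zeitgeber time (ZT) 0 and off at ZT12. The diabetic mice (C57BL/6-Ins2Akita/J) were heterozygous for Ins2Akita, a mutation that misfolds insulin and leads to the loss of pancreatic beta cells and to hyperglycemia, and the control mice (C57/BL/6) were their wild-type littermates. Eyes were taken at ZT1, ZT5, ZT9, ZT13, ZT17 and ZT21 after perfusion, at night under dim red light, with 5, 6, 5, 5, 5 and 4 control libraries (30 in all) and 5, 5, 5, 4, 4 and 5 diabetic libraries (28 in all). The model is thus one of insulin loss by a germline mutation, and each group holds males of a single age.

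The proteasome is the large protease that degrades proteins marked with ubiquitin in the cytosol and the nucleus. Its barrel-shaped core, the 20S particle, is made of outer rings of alpha subunits, which gate the entry, and inner rings of beta subunits, which cut the peptide chain, and it is capped by the 19S particle, whose base unfolds the substrate with a ring of ATPases and whose lid removes the ubiquitin. Photoreceptors make and turn over large amounts of protein, and in many cells the subunit genes are induced together by the transcription factor NRF1 (Nfe2l1) when degradation falls behind.

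Promoter windows from RefSeq (build GRCm38.p6), running from 250 bases before the gene start to 50 after it, were matched for 36 of the 43 genes. The upstream parts of 4 of them are printed, 5′ to 3′ on the strand of the gene: Psmb5 and Psmb6, catalytic subunits whose windows hold an antioxidant response element, and Psmc4 and Psma1, which differed in opposite directions between midday and midnight in control retinas, calls that were lost without 2 of the ZT17 libraries. Capitals mark a match to 1 of the motifs searched. Psmb5 lies at chr14:54618023-54618245 (minus strand), Psmb6 at chr11:70525107-70525356 (plus strand), Psmc4 at chr7:28050102-28050342 (minus strand) and Psma1 at chr7:114276119-114276366 (minus strand).
Psmb5: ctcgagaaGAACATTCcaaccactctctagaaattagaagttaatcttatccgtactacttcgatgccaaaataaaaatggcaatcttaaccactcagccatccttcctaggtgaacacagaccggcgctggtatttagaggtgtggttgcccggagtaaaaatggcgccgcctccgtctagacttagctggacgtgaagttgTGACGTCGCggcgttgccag
Psmb6: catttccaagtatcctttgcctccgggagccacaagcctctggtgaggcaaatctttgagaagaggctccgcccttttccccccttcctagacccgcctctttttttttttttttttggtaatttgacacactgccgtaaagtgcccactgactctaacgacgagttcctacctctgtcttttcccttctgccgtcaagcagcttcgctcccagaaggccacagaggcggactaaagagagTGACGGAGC
Psmc4: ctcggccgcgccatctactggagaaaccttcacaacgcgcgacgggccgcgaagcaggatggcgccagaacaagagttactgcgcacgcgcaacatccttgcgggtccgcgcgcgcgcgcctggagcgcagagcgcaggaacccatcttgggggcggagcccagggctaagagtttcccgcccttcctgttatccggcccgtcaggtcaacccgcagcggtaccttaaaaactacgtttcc
Psma1: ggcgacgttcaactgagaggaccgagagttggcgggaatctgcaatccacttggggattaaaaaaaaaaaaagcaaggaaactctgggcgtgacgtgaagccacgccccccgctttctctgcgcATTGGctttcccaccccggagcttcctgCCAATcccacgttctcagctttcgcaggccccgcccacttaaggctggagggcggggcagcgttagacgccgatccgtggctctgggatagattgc
The antioxidant response element (TGACNNNGC, searched on both strands like the rest) was found in the windows of 6 of 36 members (16.7%) and in those of 13.99% of all 27025 genes with a window. Its first base lay at -47 from the start in Psmb5, at -9 in Psmb6, at -31 in Psmd9 and at -7 in Psme4. It was also found in Psmc6 (-227) and Psmd12 (-247). The CCAAT box (CCAAT), which Psma1 holds in both orientations, was found in 14 members (38.9%) against 41.1% of genes, the E-box of the clock factors (CACGTG) in 4 members (11.1%) against 8.09%, the interferon element (GAAANNGAA) in 6 members (16.7%) against 9.76%, and the heat shock element (GAANNTTC), which Psmb5 holds at -242, in 2 members (5.56%) against 9.04%. In the members' windows no match of a motif overlapped a match of a different motif, while the CCAAT matches of Psmd14 at 4 and 7 overlapped each other. A match is a description of these letters and was not tested for binding.

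The libraries held 7773117 to 22147398 counts each. The members together took 0.176% to 0.209% of the counts in control libraries (median 0.196%) and 0.170% to 0.211% in diabetic libraries (median 0.195%), and these ranges overlapped almost entirely. Markers of rods summed to at least 524268 normalized counts in every library, and those of bipolar cells to at least 9758. Markers of the lens ranged from 0 to 31583, so that some libraries carried lens RNA. The highest sums were in control ZT1 replicate 6 (31583), control ZT21 replicate 2 (25242) and control ZT17 replicate 5 (21701). The highest in a diabetic library was 666. The part of lens RNA in the results was not tested. In whole retinas, fewer cells of a type and less RNA per cell cannot be told apart.

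Levels differed widely between subunits, while the highest time point mean of a member was 1.02 to 1.60 times its lowest in the control mice and 1.05 to 1.55 times its lowest in the diabetic mice. Per kilobase of exon, the 6 ATPases of the 19S base ranged from 159 to 682 normalized counts in control retinas, with Psmc2 lowest and Psmc5 highest. The alpha ring ranged from 173 to 454, with Psma6 highest, and the beta ring from 141 to 429, with Psmb1 lowest and Psmb6 highest. The 8 lid subunits ranged from 135 to 382. The assembly chaperones of the 19S base (Psmd5, Psmd9 and Psmd10), which are not part of the finished particle, were lower, at 58.3 to 88.7. The activators, caps that open the core without ATP, ranged from 95.7 to 423, and Psme3, the nuclear form, was highest.

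The inducible beta subunits, which interferon brings into the core in place of the constitutive catalytic subunits, were low. Psmb9 stood at 2.57 normalized counts per kilobase in control retinas, Psmb8 at 7.97 and Psmb10 at 34.5. Per kilobase, Psmb9 was 0.607% ± 0.218 of Psmb6, whose place it takes, in control retinas (SD, n = 30) and 0.682% ± 0.276 in diabetic retinas (SD, n = 28). Psmb8 was 4.11% ± 1.12 of Psmb5 in control retinas and 4.62% ± 1.14 in diabetic retinas. Psmb10 was 16.4% ± 2.46 of Psmb7 in control retinas and 16.9% ± 2.17 in diabetic retinas. For each of these pairs the genotypes differed by less than 1 SD. The 2 members under the filter were the subunits restricted to other tissues: Psma8, the alpha subunit of the testis, had a mean of 0.899 normalized counts in control and 0.787 in diabetic retinas, and Psmb11, the beta subunit of the thymus, had 0.114 and 0.173.

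**Figure D1:**
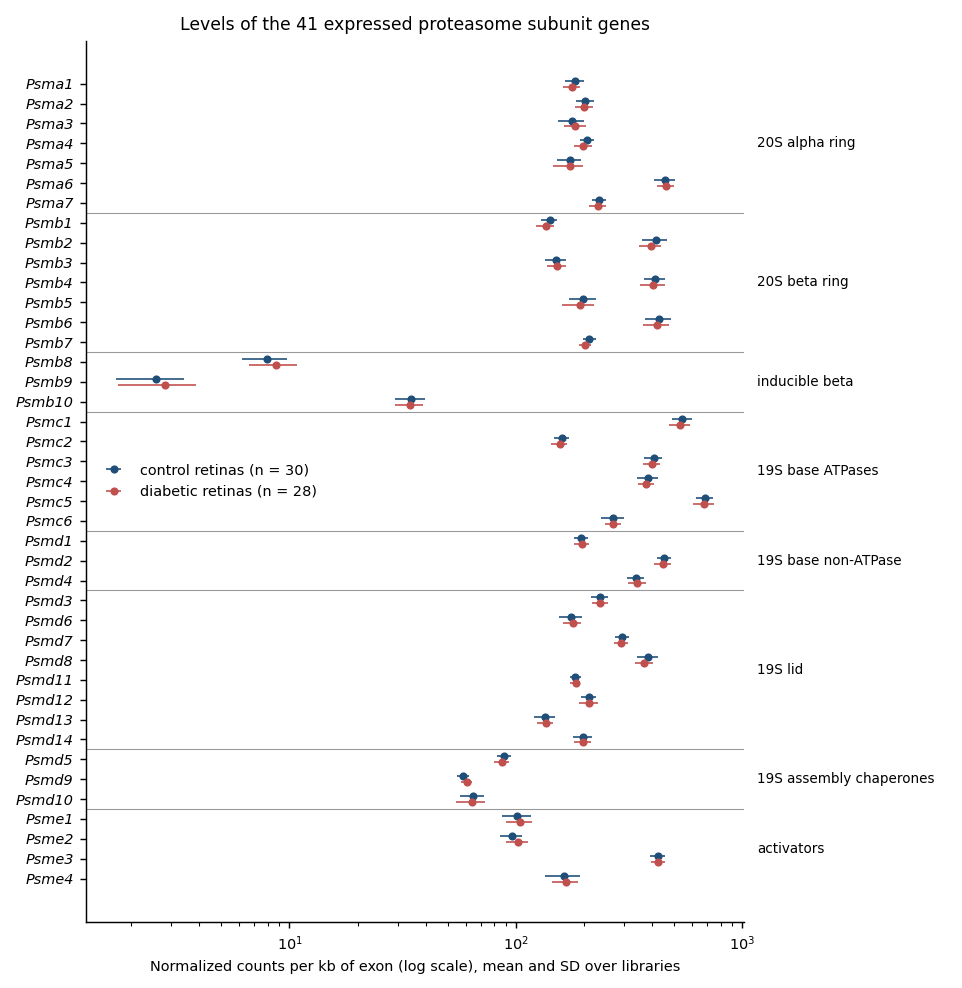
Level of each proteasome gene in control and diabetic retinas, as normalized counts per kilobase of exon on a log axis, grouped by role in the particle. The inducible subunits Psmb8, Psmb9 and Psmb10 lie below the constitutive beta ring, whose members range from 141 to 429 in control retinas.

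Some members share exonic bases with a gene on the opposite strand, and the strand setting of the counting is not given in the sources used here. Psmd13 shares 342 bases with Sirt3, Psmc3 215 with Slc39a13, Psmb7 405 with Nek6, Psmb9 212 with Tap1 and Psme1 14 with Emc9. Reads of such partners may not be told apart.

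The first question of the design was which transcripts follow a daily rhythm. The study asked for an unadjusted p under 0.05 in the empirical JTK_CYCLE permutation test and a minimum fold, which was taken here as a highest library more than 25% above the lowest, a bar that 40 of 41 members passed in each genotype. By this reading, 3 of 41 members were rhythmic in control retinas (7.32%), where 21.8% of all genes tested were. In diabetic retinas 1 of 41 was (2.44%), where 23.9% of all genes were. With the excess of 25% asked of the time point means instead, which 5 members met in control and 1 in diabetic retinas, no member was rhythmic in either genotype (13.2% of genes in control and 14.2% in diabetic retinas). With the p-values adjusted over all genes no member passed in control retinas (8.23% of genes) or in diabetic retinas (9.8% of genes). The fitted 24 h cosines were shallow: the median relative amplitude (amplitude over mean) of the members was 3.02% in control and 4.05% in diabetic retinas, where that of all genes was 7.07% and 7.26%. Low counts carry more noise, and among genes with a median above 100 the members' median was 2.85% in control and 4.05% in diabetic retinas, against 5.03% and 5.34% for all genes. Amplitudes stayed under 5% for 25 members in control retinas and for 30 in diabetic retinas. In control retinas the peaks were spread over the day, with 21 members peaking in the light and 20 in the dark (mean vector length 0.057, where 0 is an even spread and 1 a common hour, against 0.042 for all genes). In diabetic retinas 23 peaked in the light and 18 in the dark, and the peaks were less evenly spread (mean vector length 0.297, against 0.024 for all genes), around a median of ZT10.59. These lengths are a description and were not tested.

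**Figure D2:**
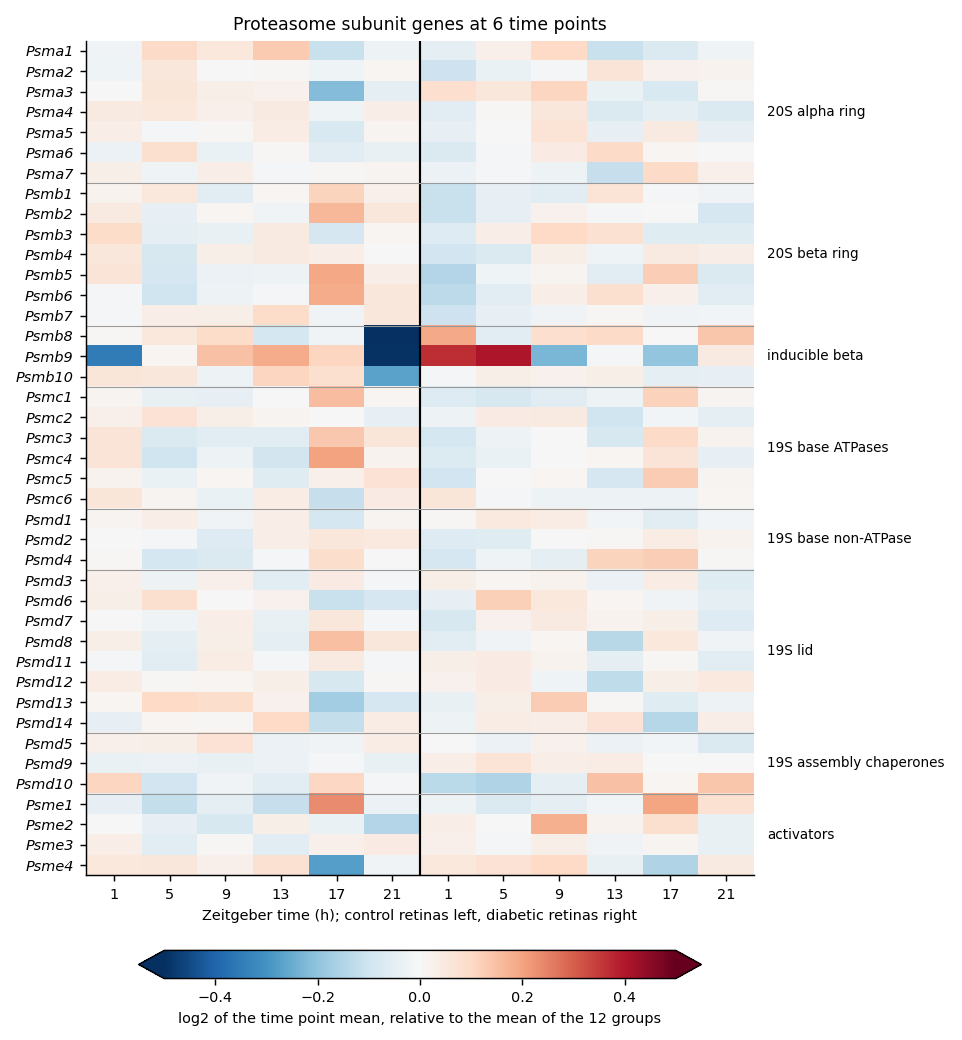
Log2 of the mean level of each expressed proteasome gene at the 6 time points in control and diabetic retinas, relative to its mean over the 12 groups. Colours saturate at -0.5 and 0.5. Most rows stay pale, and the strongest colours belong to the inducible subunits Psmb8 and Psmb9, which are the lowest expressed.

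Psmd13, a structural subunit of the lid, had the smallest p in control retinas. Its control libraries ranged from 439.9 to 526.2 normalized counts at ZT5 (median 483.2, n = 6). At ZT17 they read 373.6, 378.3, 394.2, 404.7 and 457.9, so that only the highest overlapped the ZT5 range. The permutation p was 0.00534 (adjusted p 0.0568), with an amplitude of 8.89% ± 2.27 (SE) and a peak at ZT6.68 ± 0.98 h. It was also the only member with a 24 h cosine by edgeR's quasi-likelihood test in control retinas (adjusted p 0.00729, against 12.2% of genes called).

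Psmc4 and Psmc3, ATPases of the base, peaked on the other side of the day. Psmc4 had a permutation p of 0.0131 (adjusted p 0.10), an amplitude of 7.62% ± 2.55 (SE) and a peak at ZT19.37 ± 1.26 h. It was the only member for which the 6 time points differed in any shape by edgeR in control retinas (adjusted p 0.0240, against 9.1% of genes), and there was none in diabetic retinas (10.1% of genes). Psmc3 had a permutation p of 0.0237 (adjusted p 0.143), an amplitude of 6.88% ± 2.06 (SE) and a peak at ZT19.99 ± 1.11 h. The call of Psmc3 was lost without control ZT17 replicate 1, 2 or 3. Without both replicates 1 and 3, which stood apart in composition, Psmd13 alone was called (permutation p 0.0264), against 18.5% of genes, while Psmc4 had a permutation p of 0.090 and Psmc3 one of 0.108. In the same libraries edgeR found no cosine among the members, against 7.97% of genes. Without the 5 libraries of lowest mitochondrial share, described with the composition of the libraries, Psmd13 and Psmc4 were called (permutation p 0.0096 and 0.0169) and Psmc3 was not (0.053), against 21.5% of genes, and the control cosines by edgeR were 2, Psmc4 and Psmd13, against 10.9% of genes. Next came Psma1, an alpha ring subunit, with a permutation p of 0.0544 and a peak at ZT8.31, and then Psma3 of the alpha ring, Psmd2 and Psmd4 of the base, all at 0.0948.

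In diabetic retinas the member called was Psmd4, the ubiquitin receptor of the base also known as Rpn10. Its diabetic libraries read 859.7, 865.6, 871.4, 937.9 and 981.4 normalized counts at ZT1. At ZT13 they read 946.1, 982.3, 991.4 and 1225.2. At ZT17 they read 896.0, 996.9, 1073.4 and 1208.2. The night values lay mostly above those of ZT1, but the groups overlapped. The permutation p was 0.0389 (adjusted p 0.177), with an amplitude of 6.80% ± 2.29 (SE) and a peak at ZT15.36 ± 1.24 h, and the call was lost in 11 of the 28 repeats that left out a diabetic library. It was also lost without the libraries of lowest mitochondrial share (permutation p 0.0929, with 20.9% of genes called), which include the ZT13 library at 1225.2. TMM scaling of the counts ended it too, with 23.8% of genes called. The other members with the smallest permutation p in diabetic retinas were Psmb3 of the beta ring (0.0828), Psmd13 (0.0915, peak at ZT8.47), and the chaperone Psmd10 and the lid subunit Psmd6 (both 0.121). No member had a 24 h cosine by edgeR in diabetic retinas, where 14.2% of genes were called.

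The catalytic subunits were not called in either genotype. Psmb6, of the caspase-like site, had a permutation p of 0.103 in control and 0.379 in diabetic retinas. Psmb5, of the chymotrypsin-like site, had 0.410 and 0.686, and Psmb7, of the trypsin-like site, 0.820 and 0.502. Among the inducible subunits, Psmb9 had the largest amplitude of all members, 21.7% ± 8.16 (SE) in control retinas, at group means of only 6.82 to 10.9 normalized counts, and a permutation p of 0.103. Psmb8 had a permutation p of 0.180 in control and 0.870 in diabetic retinas, and Psmb10 0.410 and 0.920.

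**Figure D3:**
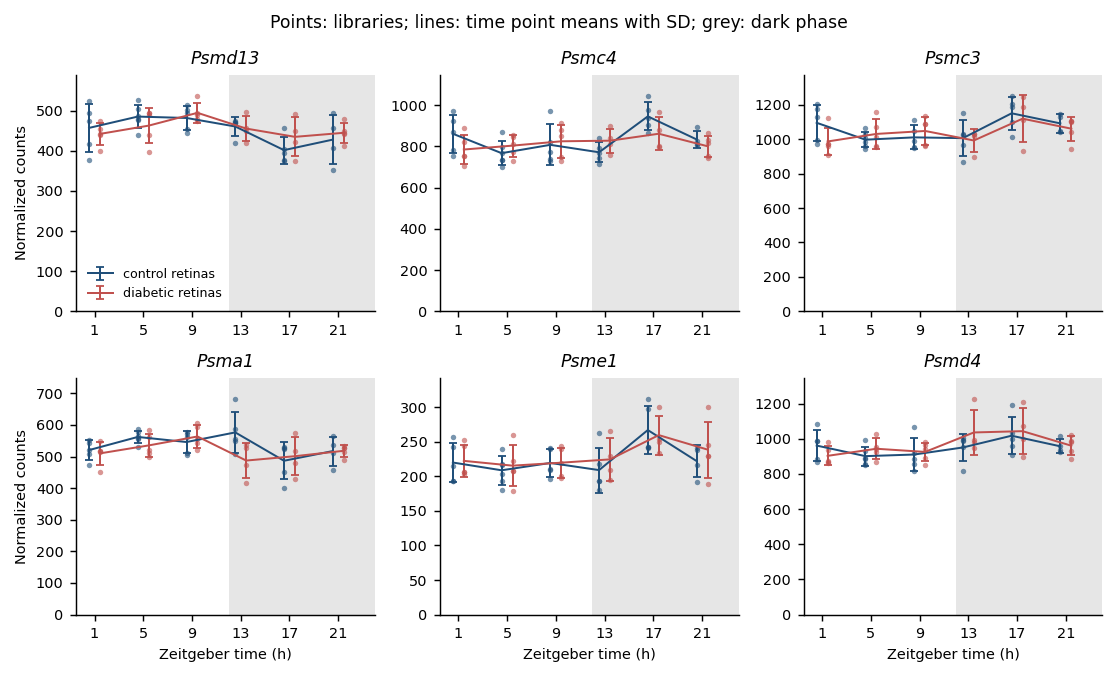
Normalized counts of Psmd13, Psmc4, Psmc3, Psma1, Psme1 and Psmd4 at the 6 time points, with a point per library and the group means joined, in control and diabetic retinas. In control retinas Psmd13 and Psma1 are lower and Psmc4, Psmc3 and Psme1 higher at ZT17 than at ZT5.

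Whether the rhythm differed between genotypes was tested with the genotype by cosine term of the edgeR fit. No member and no gene passed an adjusted p of 0.05, while 3.36% of genes had an unadjusted p under 0.05, and DESeq2 called no member. Psmb9 had the smallest p among the members (0.0224 by edgeR, adjusted p 1.00), with peaks at ZT11.29 in control and ZT2.34 in diabetic retinas. Psmc4 followed (edgeR p 0.0704), with peaks at ZT19.37 and ZT14.10, and then the lid subunit Psmd11 (edgeR p 0.107).

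The second question was whether the time points that lie 12 h apart differ. Between midday and midnight in control retinas, ZT17 against ZT5, edgeR called 5 of 41 members (12.2%), where it called 15.1% of all genes. Without control ZT17 replicates 1 and 3 it called none of the 41 members and 4.78% of genes, with 3 libraries left at ZT17. Without the 5 libraries of lowest mitochondrial share, which include these, it called Psmc4 alone (2.44%) and 5.77% of genes. The members did not move together: Psmc4, Psmc3 and Psme1 rose at ZT17 (as did 7.62% of genes), and Psmd13 and Psma1 fell (as did 7.52%). At an unadjusted p under 0.05 edgeR had 13 members, 8 higher and 5 lower, and 30.9% of genes. Of the alpha ring 6 of 7 had lower and of the beta ring 5 of 7 had higher fitted values at ZT17, but only Psma1 among these passed the test.

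Psmc4 read 700.6, 733.0, 735.2, 768.2, 796.2 and 867.5 normalized counts at ZT5 in control retinas. At ZT17 it read 866.9, 901.9, 938.6, 974.4 and 1043.6, so that the ranges met only at the highest ZT5 and the lowest ZT17 library. The log2 difference was 0.30 ± 0.07 (SE; edgeR adjusted p 0.00379). Psmd13 differed by -0.28 ± 0.08 (SE; edgeR adjusted p 0.00935) on its values above. These 2 calls held in each of the 58 fits that left out a single library, but not without both control ZT17 replicates 1 and 3, where the log2 difference was 0.23 for Psmc4 (edgeR adjusted p 0.106) and -0.24 for Psmd13 (edgeR adjusted p 0.12). Without the 5 libraries of lowest mitochondrial share it was 0.24 for Psmc4 (edgeR adjusted p 0.0444) and -0.23 for Psmd13 (edgeR adjusted p 0.129).

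Psme1, the alpha subunit of the interferon-inducible PA28 activator, was named after its values were seen. It read 180.3, 193.8, 203.6, 216.7, 218.7 and 240.2 normalized counts at ZT5 in control retinas. At ZT17 it read 241.2, 242.3, 242.5, 297.8 and 311.7, with no overlap, and the log2 difference was 0.35 ± 0.11 (SE; edgeR adjusted p 0.0201). The 2 highest values were those of control ZT17 replicates 1 and 3. The call was lost without control ZT5 replicate 1 or control ZT17 replicate 1 or 3, and without both of the latter the difference was 0.21 (edgeR adjusted p 0.393).

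Psma1 read 530.1, 556.2, 559.0, 563.9, 576.9 and 585.7 normalized counts at ZT5 in control retinas. At ZT17 it read 399.9, 451.8, 523.9, 527.5 and 529.9, just below the ZT5 range and with replicates 1 and 3 lowest, and the log2 difference was -0.21 ± 0.07 (SE; edgeR adjusted p 0.0415). Psmc3 read 940.4 to 1063.7 at ZT5 (median 994.5, n = 6). At ZT17 it read 1010.0, 1099.5, 1187.9, 1204.6 and 1250.6, overlapping with its lowest library, and the log2 difference was 0.20 ± 0.07 (SE; edgeR adjusted p 0.0431). The calls of Psma1 and Psmc3 were each lost in 7 of the 58 fits that left out a library and when genes were not filtered (edgeR adjusted p 0.106 for Psma1 and 0.073 for Psmc3). Without control ZT17 replicates 1 and 3 the difference was -0.10 for Psma1 (edgeR adjusted p 0.604) and 0.14 for Psmc3 (edgeR adjusted p 0.414).

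In diabetic retinas, ZT17 against ZT5, edgeR called none of the 41 members, where it called 7.45% of all genes. Psmc4 read 728.3, 772.4, 813.3, 845.4 and 857.2 normalized counts at ZT5. At ZT17 it read 795.4, 803.7, 876.9 and 967.7, within or above the ZT5 range, and the log2 difference was 0.10. Psmd13 differed by -0.09, Psma1 by -0.10, Psmc3 by 0.12 and Psme1 by 0.26 (edgeR adjusted p 0.164). These 5 had the sign they had in control retinas. The largest fitted difference among the members was that of the inducible subunit Psmb9, -0.59 ± 0.34 (SE; edgeR adjusted p 0.308), against 0.10 in control retinas. Psmb9 read 8.97, 12.7, 13.0, 14.2 and 14.7 normalized counts at ZT5 and 5.14, 5.48, 6.79 and 16.1 at ZT17 in diabetic retinas, so that the ranges overlapped through replicate 1, the highest. Among the diabetic ZT17 libraries, replicate 4 had 3 of 41 members above their group mean (mean log2 deviation -0.16) and replicate 1 had 34 (0.13), and without replicate 1 edgeR called 1 member, Psmb9, lower at ZT17 (-1.10, edgeR adjusted p 0.0463; 2.44% of members, against 9.01% of genes). Their part in this contrast was not tested further. The difference between genotypes in this contrast was called by edgeR for no member and for no gene (3.84% of genes at an unadjusted p under 0.05). It was -0.20 for Psmc4 (edgeR unadjusted p 0.0716) and 0.19 for Psmd13 (edgeR unadjusted p 0.10).

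**Figure D4:**
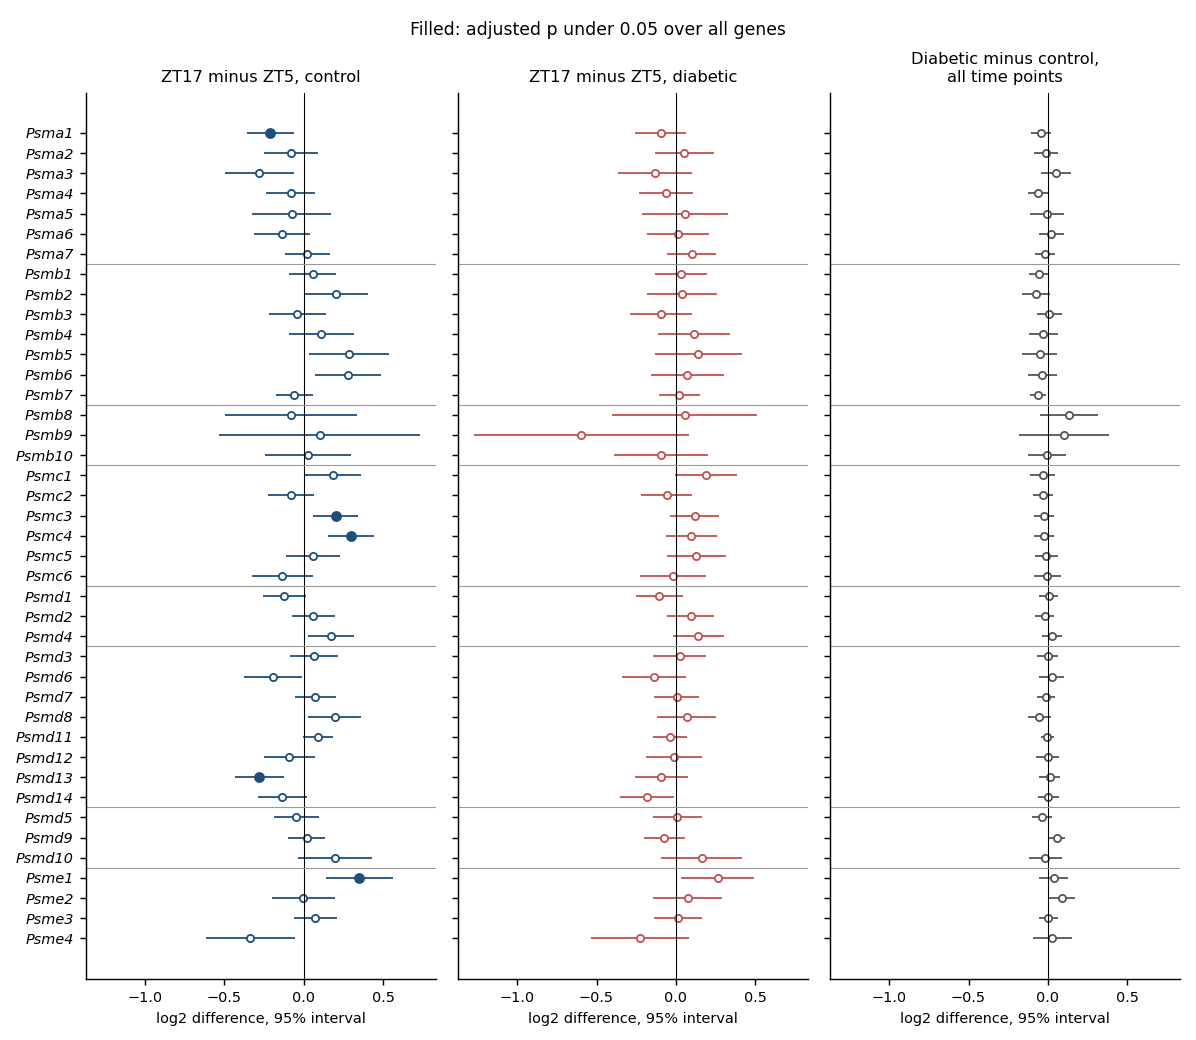
Log2 difference of each expressed proteasome gene with its 95% interval from edgeR, for ZT17 minus ZT5 in control retinas, the same in diabetic retinas, and diabetic minus control over all time points. Filled points have an adjusted p under 0.05: 5 genes in the first panel and none in the others.

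For the other pairs of time points edgeR called no member. ZT13 against ZT1 was called for 0.837% of genes in control and 1.37% in diabetic retinas, and ZT21 against ZT9 for 2.32% and 5.12%.

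The libraries of the midday and midnight groups also differed in composition. Malat1, Meg3 and Neat1, long noncoding RNAs that stay in the nucleus, took 1.47% to 1.73% of the counts in control ZT5 libraries (median 1.60%) and 0.971% to 1.63% in control ZT17 libraries (median 1.28%). In diabetic libraries they took 1.14% to 2.12% at ZT5 and 0.944% to 1.77% at ZT17. Mitochondrial transcripts took 1.45% to 2.17% in control ZT5 libraries (median 1.55%) and 0.675% to 1.87% in control ZT17 libraries (median 1.2%). Control ZT17 replicates 1 and 3 stood apart, with the lowest mitochondrial shares of their group (0.998% and 0.675%). Shares under 1.1% were also found in diabetic ZT17 replicate 3 (0.803%), diabetic ZT13 replicate 5 (0.821%) and control ZT9 replicate 4 (1.07%). Psme4 read 795.1 and 758.2 normalized counts in control ZT17 replicates 1 and 3 and 1306.6 to 1448.8 in the other control ZT17 libraries, and Psma3 read 426.8 and 465.1 against 667.1 to 728.4. Psme4 read 930.0 in control ZT9 replicate 4 and 865.0 in diabetic ZT17 replicate 3, so that these 4 libraries lay below all others, while diabetic ZT13 replicate 5 read 1216.8, within the range of the 53 libraries with a higher share (1103.2 to 1772.2). The bound of 1.1% was set after these values were seen. Without control ZT9 replicate 4 alone, 7 members were rhythmic in control retinas (26.6% of genes) and edgeR found 4 control cosines (9.76%, against 16.5% of genes). Without diabetic ZT17 replicate 3 alone, no member was rhythmic in diabetic retinas (21% of genes). The part of the mitochondrial share itself in the results was not tested. With the share of these noncoding RNAs as a covariate, a fit added after seeing the data, edgeR associated 24 of 41 members with it, 22 of them lower and 2 higher (Psme4 and Psmc6) where the share was higher, and 49.1% of all genes. The log2 slope per percentage point was -0.54 for Psmb6, -0.31 for Psmc4, -0.47 for Psme1 and 0.64 for Psme4, the large activator PA200. In that fit ZT17 against ZT5 in control retinas was called for Psmd13 (-0.27, edgeR adjusted p 0.0225) and Psmc4 (0.19, edgeR adjusted p 0.0247), and for 8.81% of all genes. It was no longer called for Psme1 (0.19), Psma1 (-0.20) or Psmc3 (0.09). In diabetic retinas the same fit called Psmb6, for a 24 h cosine (edgeR adjusted p 0.0470, 13.1% of genes) and for ZT21 against ZT9 (-0.22, edgeR adjusted p 0.0473, 6.24% of genes).

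**Figure D5:**
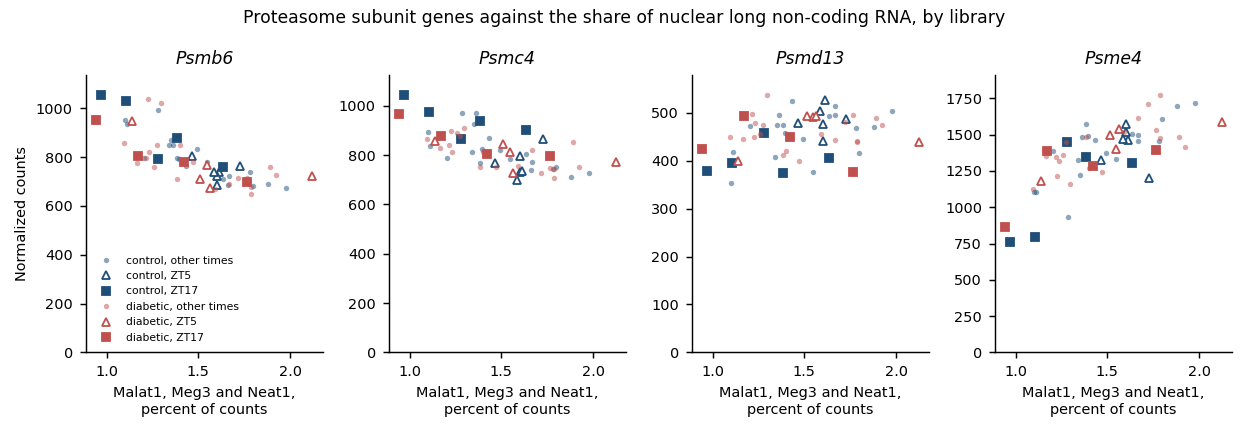
Normalized counts of Psmb6, Psmc4, Psmd13 and Psme4 in each library against the percent of its counts in Malat1, Meg3 and Neat1, with the ZT5 and ZT17 libraries marked. Psmb6 falls and Psme4 rises with the share.

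Markers of bipolar cells summed to 12826 to 13992 normalized counts at ZT5 and to 15890 to 18663 at ZT17 in control retinas, and those of Muller glia to 35777 to 39771 and 42984 to 45619, without overlap. Those of amacrine cells (6446 to 6923 and 7051 to 7918) and endothelium (2157 to 2352 and 2483 to 2785) did not overlap either. Those of rods, cones, ganglion cells, microglia and pigment epithelium overlapped. The part of cell types in the differences of the members was not tested.

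Across the 58 libraries, the deviations of the members from their group means were compared in pairs on the log2(normalized count + 1) scale, as a description. Of the 820 pairs, 635 were positively correlated (77.4%), with a median r of 0.255, where 49.7% of the pairs of all genes tested were, and 50.9% of those of genes with a median above 100 (median r 0.01). The highest was between the ATPases Psmc3 and Psmc5 (r = 0.840), and the lowest between Psmb6 and Psme4 (r = -0.861). These points share library depth and composition.

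The third question was whether the genotypes differ. Over all time points edgeR called none of the 41 members, where it called 4.65% of all genes, and 2 members and 17.7% of genes had an unadjusted p under 0.05. The fitted log2 differences, diabetic minus control, ranged from -0.08 to 0.13, and for 39 of 41 members the 95% interval lay within 0.2 of 0. All 6 ATPases and 6 of 7 beta ring subunits were fitted lower and all 4 activators higher in diabetic retinas, but none of them passed the test.

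Psmb7 had the smallest p. Its mean was 721 ± 47.3 normalized counts in control (SD, n = 30) and 690 ± 42.7 in diabetic retinas (SD, n = 28), and the log2 difference was -0.06 ± 0.03 (SE; edgeR adjusted p 0.168). Psmd9, a chaperone of the base, had 423 ± 24.7 and 440 ± 24.3, a log2 difference of 0.06 ± 0.03 (SE; edgeR adjusted p 0.195). Psme2, the beta subunit of PA28, had 169 ± 18.3 and 179 ± 20.1, a log2 difference of 0.09 ± 0.04 (SE; edgeR adjusted p 0.284). Psma4 of the alpha ring had 490 ± 33.2 and 470 ± 44.7, and Psmb1 of the beta ring 646 ± 52.0 and 620 ± 55.2. In each case the genotypes differed by less than 1 SD.

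At single time points edgeR called no member either, where the share of genes called was 0% at ZT13 and ZT21, 0.00523% at ZT9, 0.0105% at ZT1, 0.0209% at ZT5 and 0.173% at ZT17. Of the 246 comparisons of a member at a time point, 5 had an unadjusted p under 0.05 by edgeR (2.03%, against 5.69% for all genes). These were Psma1 at ZT13 and Psmd10 and Psmc3 at ZT1, which were fitted lower in diabetic retinas (-0.24, -0.25 and -0.15), and Psme2 at ZT9 and Psmb8 at ZT21, which were fitted higher (0.25 and 0.61). The largest difference was 0.65 ± 0.33 (SE) for Psmb9 at ZT1, with an edgeR adjusted p of 0.928. Psma1 at ZT13 had an edgeR adjusted p of 0.813. Its control libraries read 508.4, 550.4, 554.6, 587.2 and 681.3 normalized counts and the diabetic ones 415.6, 471.8, 525.9 and 535.8, which overlapped. Psmb8 at ZT21 had 11.4, 20.4, 22.9 and 24.1 normalized counts in control and 25.4, 26.0, 29.7, 31.7 and 40.1 in diabetic libraries. The Psmb8 values did not overlap, but this gene was named after its values were seen among the members at each time point and did not pass the adjusted threshold.

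Of 44 further genes of the pathway that passed the filter, 9 were rhythmic by JTK_CYCLE in control retinas (20.5%, against 21.8% of all genes) and 8 in diabetic retinas (18.2%, against 23.9%), shares no higher than those of genes at large. With adjusted p-values 3 remained in control retinas (Nfe2l2, Ngly1 and Ufd1; 6.82%, against 8.23% of genes) and 1 in diabetic retinas (Ufd1; 2.27%, against 9.8% of genes), and the calls below are unadjusted. Of the 4 that control proteasome transcription, 3 were rhythmic in control (Nfe2l2, Ngly1 and Ddi2) and 2 in diabetic retinas (Nfe2l2 and Ddi2). Ddi2, the protease that activates NRF1, had a permutation p of 0.0405 in control and 0.0346 in diabetic retinas (adjusted p 0.195 and 0.165). Nfe2l2, which encodes NRF2, had a permutation p of 3.4e-05 in control retinas (adjusted p 0.00228) with a peak at ZT17.05, and it rose from ZT5 to ZT17 by a log2 difference of 0.41 in control and 0.46 in diabetic retinas (edgeR adjusted p 0.000207 and 0.00023). Ngly1, the glycanase that processes NRF1, had a permutation p of 0.0030 in control retinas and fell by 0.44 and by 0.39 on the log2 scale (edgeR adjusted p 0.000891 and 0.00977). Nfe2l1 itself was not called (permutation p 0.122 in control and 0.292 in diabetic retinas). For ZT17 against ZT5, edgeR called 3 of the 44 higher and 3 lower in control retinas, where it called 7.62% and 7.52% of all genes. In diabetic retinas it called 1 higher and 2 lower, where it called 7.45% of all genes in either direction. Of 16 assembly factors and regulators, 2 were rhythmic in control (Psmg3 and Psmf1) and 3 in diabetic retinas (Psmg3, Adrm1 and Psmg2). Of 14 ubiquitin genes, E1 enzymes and shuttle factors, 3 were rhythmic in control (Ufd1, Uba1 and Ubqln4) and 2 in diabetic retinas (Ufd1 and Uba1). Of 10 genes of antigen presentation and interferon response, 1 was rhythmic in each genotype, Erap1 in control (permutation p 0.0188) and Tap1 in diabetic retinas (permutation p 0.0124), while Tapbp had the next smallest p (0.122 in control retinas).

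Between genotypes 3 of the 44 were called (6.82%, against 4.65% of all genes), all named after their values were seen. Pomp, the maturation factor of the 20S core, was lower in diabetic retinas (log2 difference -0.12 ± 0.03, SE; edgeR adjusted p 0.0257). Tap2, a peptide transporter, and the class I gene H2-K1 were higher, with log2 differences of 0.26 ± 0.05 (SE; edgeR adjusted p 0.000297) and 0.19 ± 0.05 (SE; edgeR adjusted p 0.0188).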

How the data were processed

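RNA from 58 single retinas was sequenced, in 12 groups of genotype and time point. The authors aligned the reads with STAR 2.7.4a to GRCm38.p5 with Gencode M15 and counted them with HTSeq 0.11.1, and the deposited values are raw counts per gene. All sample columns were matched to a label. Genes with a median above 4 counts divided by DESeq2 (1.42.0) size factors over all libraries were tested. JTK_CYCLE was re-implemented in Python 3.11.15 (numpy 2.4.6, scipy 1.17.1) with 30 waveforms of 24 h and 1000000 shuffled series (200000 for alternatives), and cosines were fitted by least squares. Differences were tested in R 4.3.3 with edgeR 4.0.16 (quasi-likelihood, TMM) on all 58 libraries, and p-values were adjusted by Benjamini-Hochberg over all 19120 genes. These scripts were tested on simulated data. The labels do not say how the libraries of a group were batched, so p-values measure the spread between these samples.

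The genes named are the catalytic and inducible beta subunits, the 5 members with the smallest JTK_CYCLE p in each genotype, the 5 for genotype, the 3 for a difference in rhythm, those under the filter, and the 3 of each pathway list with the smallest p for rhythm in either genotype. The fifth place in control retinas was a tie, and all its members are named. Psme1, Psme4, Psma6, Psmc2, Psmc5, Psmc6, Psmd5, Psmd12, Psme3, Psmg2, Nfe2l1, Pomp, Tap2, H2-K1 and members given at a single time point were named after their values were seen. The members and lists were chosen with earlier results of these data known. Alternatives were TMM scaling, other filters, DESeq2, a replicate block, and leaving out libraries or time points.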

Additional observations from a re-analysis of the deposited data

Results flagged for a closer look

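Psmd4, the ubiquitin receptor of the 19S base, stood apart in diabetic ZT13 replicate 5, at 1225.24 normalized counts, where the nearest of the other libraries of that group had 991.45 (n = 4). Of the 40 groups of named members looked at, this was the only one flagged, and chance marks about 1 in 20 groups. These 40 were not all the groups of the named members. In diabetic ZT17 (n = 4), replicate 1 also lay far from the rest for Psmb9, at 16.1 against 5.14, 5.48 and 6.79. For Psmb8 it read 44.3 against 20.4, 22.0 and 24.3.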

How the results depend on the processing

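No member was called for genotype over all time points, for genotype at a single time point or for a difference in rhythm under any alternative run. Shares in parentheses are those of all genes tested under the same alternative. The 3 members rhythmic in control retinas (21.8%) became 0 with the fold taken between time point means (13.2%) or with adjusted p-values (8.23%), 5 without ZT13 (23%), 1 without ZT17 (14.1%), 1 without both control ZT17 replicates 1 and 3 (18.5%), 2 without the 5 libraries of low mitochondrial share (21.5%), and 4 with TMM scaling (22%) or without a filter (14%), and 2 to 7 when a library was left out (19.1% to 26.6%, with 7 members without control ZT9 replicate 4). The single rhythmic member in diabetic retinas (23.9%) became 0 with TMM scaling (23.8%), with the fold of time point means (14.2%), with adjusted p-values (9.8%), without the low-share libraries (20.9%), and without ZT1 (21.3%), ZT13 (21.1%) or ZT17 (16.3%), and 0 to 3 when a library was left out (20.8% to 25.9%). The single control cosine by edgeR (12.2%) became 2 with DESeq2 size factors (12.3%), a median above 10 (13.9%) or above 100 (18.1%), the replicate block (16%), DESeq2's test (13.6%), without the low-share libraries (10.9%), or without ZT9 (9.91%) or ZT21 (9.67%), 3 without ZT13 (13%) and 0 without ZT5 (6.1%), without ZT17 (3.94%) or without both control ZT17 replicates 1 and 3 (7.97%), and 1 to 4 when a library was left out (9.11% to 16.5%). The diabetic cosine count of 0 (14.2%) became 1 with a median above 100 (22.4%) and with the noncoding RNA share as a covariate (13.1%), and 0 to 1 when a library was left out (11.3% to 17.2%). The 5 members that differed between opposite time points in control retinas became 3 without a filter (5.63% of genes), 11 with the replicate block (26.8%, against 21.4% of genes), 6 of 37 with a median above 100 (16.2%, against 24.5% of genes), 2 with the covariate (8.81% of genes), 1 without the low-share libraries (5.77% of genes) and 0 without both control ZT17 replicates 1 and 3 (4.78% of genes), and 2 to 8 when a library was left out (7.22% to 19.4% of genes, with 2 members without control ZT5 replicate 1, ZT17 replicate 1 or ZT17 replicate 3). In diabetic retinas the count of 0 became 1 with the covariate (for ZT21 against ZT9, 6.24% of genes) and 0 to 1 when a library was left out (1 without diabetic ZT17 replicate 1, 9.01% of genes). The median acrophase of the members in control retinas, ZT19.75, became 5.15 with TMM scaling, 13.1 without ZT1, 4.6 without ZT5, 3.69 without both control ZT17 replicates 1 and 3, 1.65 without the low-share libraries and 5.05 from edgeR's coefficients, and 0.269 to 20.7 when a library was left out, with the peaks spread over the day (mean vector length 0.057). The control value marks no common hour, and it is not the middle of the hours counted from ZT0, since 21 of 41 members peaked in the light. In diabetic retinas the median acrophase was ZT10.59, and 7.95 to 12.6 when a library was left out. The causes were not tested. The median above 100, the covariate and both sets of libraries left out together were chosen after seeing the data. Replicate numbers were not taken to pair the samples, since the labels tie no number to a shared litter or day and 15 of 26 same-numbered pairs, not all, correlated above 0.1 (from -0.219 to 0.579). The 6 pairs numbered 4 all did (0.142 to 0.399), and of the other numbers none did so in every pair. As a hint from the data, 25 of 58 libraries correlated best with their own number. Psme3 was 1287 to 1462 normalized counts in the 12 replicate 4 libraries, against a median of 1221 and a highest value of 1501 in the other libraries. Depth limits Psmb9 and Psmb8 most, which have the fewest reads among the members tested.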
